A study of Mus musculus with 6 samples.

Results

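A group of 10 genes, Plxna2, Nrp2, Epha4, Sema4c, Cntn2, Nfasc, Nav1, Astn1, Tnr and Cdh20, encodes axon guidance receptors and a guidance signal, neuronal adhesion and matrix proteins, and a cytoskeletal protein of growing neurites. The genes were chosen by symbol, and each matched 1 row of the table, which gave 10 of 1140 complete rows and 10 of the 646 rows that the authors had tested. All rows analysed lie on chromosome 1. Retinas carrying T2Isl1, an Isl1 knock-in at the Tbr2 locus, were set against retinas carrying T2fx (Tbr2fx), which the submitters call wild type. The genotypes are given as T2Isl1/+ and T2fx/+, and all retinas came from C57BL/6 embryos at E15.5. Each group had 3 libraries of total RNA, and each library was a pool of 8 retinas. Isl1 in the knock-in is placed at the locus of Tbr2, a transcription factor of a subset of retinal ganglion cells. No label says whether T2Isl1 leaves Tbr2 intact on that chromosome, and Isl1 and Tbr2 themselves were not analysed here, so the allele could not be checked. The table has 1 combined value per gene and group, in FPKM (a fragment count divided by transcript length and by the size of the library). No SD over libraries can be given, and depth is unknown.

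Retinal ganglion cells are the neurons that send axons out of the eye, and at this stage in the mouse many of these axons are growing toward the optic nerve and the brain. Growth cones read semaphorins and ephrins, which repel or attract them, through plexins, neuropilins and Eph receptors. Immunoglobulin-type adhesion proteins and cadherins hold axons and cells together, and tenascins form part of the matrix around them. Isl1 is a LIM-homeodomain transcription factor that mouse retinal ganglion cells need for their development.

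None of the 10 genes passed the authors' test. Most had slightly lower values in T2Isl1/+ retinas, and over the 10 genes the T2Isl1/+ value was between 78.5% and 100.1% of the T2fx/+ value, with a median of 87.8%. By the q-values of the authors' deposited table, 0 of 10 were past the threshold of 0.05 in either direction, where 1.55% of all tested rows did, 1.39% lower and 0.155% higher. The 9 rows called lower are all on the marker lists of other tissues described below: 7 lens, 1 connective tissue and 1 muscle gene. By value alone 9 of 10 were below T2fx/+ and 1 was above, while 45.4% of tested rows were below and 54.6% above. The median log2 fold change (T2Isl1/+ over T2fx/+, no pseudocount) was -0.19 over the 10 genes and 0.01 over all tested rows of the authors' deposited table. At an unadjusted p-value under 0.05 there was 1 gene of the 10, Plxna2, which was lower. Of all tested rows 3.72% were past that level, 2.63% lower and 1.08% higher. The largest difference among the 10 was 1.27-fold, lower in T2Isl1/+, whereas the smallest difference called on this chromosome was 1.79-fold. That row, Rftn2, was higher in T2Isl1/+. Of the rows called lower, Chrng had the smallest difference, with a log2 fold change of -2.43. In whole retina, fewer cells that express a gene and less of its RNA per cell cannot be told apart.

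**Figure D1:**
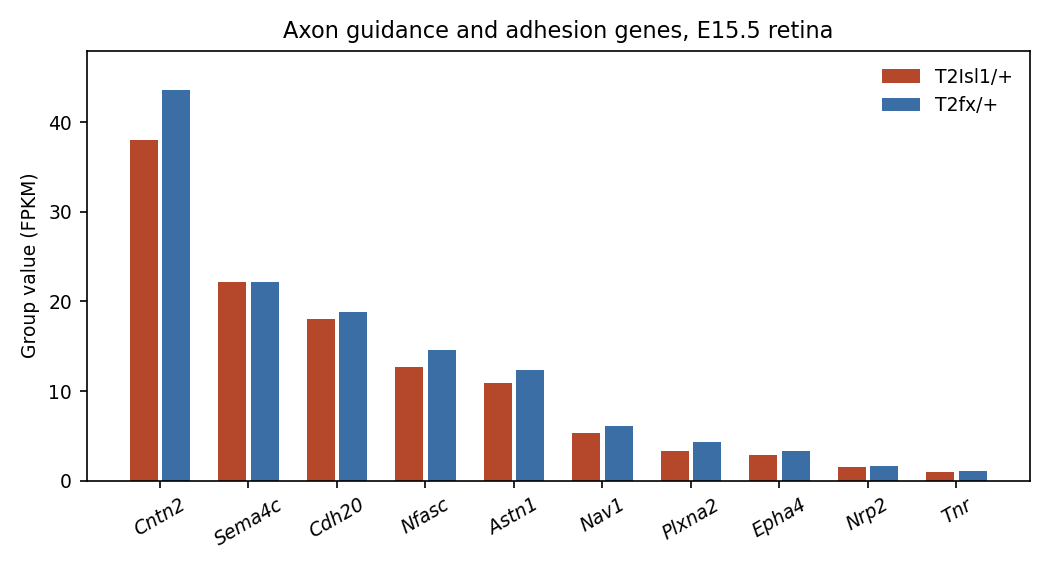
Group value in FPKM (y axis, from 0) of each gene in T2Isl1/+ retinas (red, left bar) and T2fx/+ retinas (blue, right bar), ordered by level. Each bar is the authors' single value for a group of 3 pooled libraries, so there is no error bar. Cntn2 is highest at 38.0 FPKM in T2Isl1/+ and 43.6 FPKM in T2fx/+, and every gene but Sema4c has the lower bar in T2Isl1/+.

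The promoters of 3 of the genes are shown because these genes mark the ends of that range: Plxna2 and Epha4 had the largest differences and Sema4c the smallest. Each window runs from 250 bases before to 50 bases after the gene start, 5′ to 3′ on the gene's strand, from RefSeq on build GRCm38.p6. Capitals mark TAAT or its reverse complement, core letters bound by many homeodomain proteins. The windows are chr1:194619579-194619878 on the plus strand for Plxna2, chr1:77515039-77515338 on the minus strand for Epha4 and chr1:36558332-36558631 on the minus strand for Sema4c.
Plxna2: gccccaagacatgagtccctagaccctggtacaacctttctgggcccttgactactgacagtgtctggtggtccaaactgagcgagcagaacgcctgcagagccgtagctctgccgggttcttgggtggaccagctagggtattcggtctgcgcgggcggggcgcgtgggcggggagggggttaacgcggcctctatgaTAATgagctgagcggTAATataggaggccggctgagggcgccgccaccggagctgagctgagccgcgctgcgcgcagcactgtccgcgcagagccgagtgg
Epha4: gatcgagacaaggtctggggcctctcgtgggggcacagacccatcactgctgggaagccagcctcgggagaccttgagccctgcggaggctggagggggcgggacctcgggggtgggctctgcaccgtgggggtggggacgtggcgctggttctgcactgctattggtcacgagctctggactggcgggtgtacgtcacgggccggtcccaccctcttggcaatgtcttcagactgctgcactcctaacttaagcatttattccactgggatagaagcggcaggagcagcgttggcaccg
Sema4c: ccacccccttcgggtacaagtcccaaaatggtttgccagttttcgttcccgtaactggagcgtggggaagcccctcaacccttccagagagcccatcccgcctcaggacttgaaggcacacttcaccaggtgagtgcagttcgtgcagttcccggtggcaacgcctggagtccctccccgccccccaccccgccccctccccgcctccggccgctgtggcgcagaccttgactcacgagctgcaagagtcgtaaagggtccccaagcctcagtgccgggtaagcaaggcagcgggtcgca
The Plxna2 window held 2 matches, and the Epha4 and Sema4c windows held 0. Of all 10 genes, 6 had a match in the window nearest to the 5′ end of their row, and 58.0% of the 32851 promoters of this length in the RefSeq table had one. The motif and the windows were chosen after the values were seen. The gene start in the window equalled the row's own 5′ end for 4 of the 10 genes and lay 53 bases from it for Plxna2. It lay 299 bases away for Cdh20, 1113 for Cntn2 and 6092 for Nrp2. The distance was 34636 bases for Nfasc and 102904 bases for Nav1, whose rows begin far upstream. Nrp2, Nfasc and Nav1 are among the 6 genes with a match.

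Among the guidance receptors, Plxna2 had the lowest T2Isl1/+ value relative to T2fx/+. It encodes plexin A2, through which semaphorins signal, alone or together with neuropilins. Plxna2 (chromosome 1, 194619776 to 194817051, plus strand, mm10) had 3.34 FPKM in T2Isl1/+ retinas and 4.26 FPKM in T2fx/+ retinas. Its log2 fold change was -0.35 (unadjusted p = 0.00465, q = 0.544, the authors' deposited table). By p-value it ranked 14 of the 646 tested rows, and by fold change 30 from the lowest. The difference therefore did not pass once the number of genes tested was taken into account.

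Nrp2, the other semaphorin receptor gene, had closer values. Neuropilin 2 binds class 3 semaphorins such as Sema3f and passes the signal on through plexins, since its own tail inside the cell is short. Nrp2 (62697225 to 62818692, plus strand) had 1.52 FPKM in T2Isl1/+ retinas and 1.61 FPKM in T2fx/+ retinas, a log2 fold change of -0.08 (unadjusted p = 0.649, q = 0.9997, the authors' deposited table). On the FPKM scale, which is per length, the level of Plxna2 was 2.19 times that of Nrp2 in T2Isl1/+ and 2.64 times in T2fx/+ retinas.

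Epha4 encodes a receptor tyrosine kinase that binds ephrins of both the A and the B class. It had 2.82 FPKM in T2Isl1/+ retinas and 3.34 FPKM in T2fx/+ retinas (77367185 to 77515088, minus strand), so the T2Isl1/+ value was 84.5% of the other. Its log2 fold change of -0.24, next to that of Plxna2 in size, was not called either (unadjusted p = 0.112, q = 0.9997, the authors' deposited table).

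Sema4c encodes a membrane-bound semaphorin that acts as a ligand of plexin B2. Its values were nearly equal, at 22.19 FPKM in T2Isl1/+ retinas and 22.16 FPKM in T2fx/+ retinas (36548639 to 36558381, minus strand). The log2 fold change was 0.0014 (unadjusted p = 0.991, q = 0.9997, the authors' deposited table). Sema4c was the single gene of the 10 that was not below T2fx/+, and its locus of 9743 bases was the shortest of the 10.

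The immunoglobulin-type adhesion genes Cntn2 and Nfasc had T2Isl1/+ values of 87.3% and 87.5% of the T2fx/+ values. Contactin 2, also known as TAG-1, is a lipid-anchored protein on the surface of growing axons, and Cntn2 was the most abundant of the 10 genes. Cntn2 (132509371 to 132544053, minus strand) had 38.0 FPKM in T2Isl1/+ retinas and 43.6 FPKM in T2fx/+ retinas, which was rank 109 by level in T2Isl1/+ and 91 in T2fx/+ among the tested rows. Its log2 fold change was -0.20 (unadjusted p = 0.0919, q = 0.9997, the authors' deposited table).

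Nfasc encodes neurofascin, an L1-family protein that helps to build the axon initial segment and the nodes of Ranvier. Nfasc (132564690 to 132741962, minus strand) had 12.7 FPKM in T2Isl1/+ retinas and 14.5 FPKM in T2fx/+ retinas, a log2 fold change of -0.19 (unadjusted p = 0.0889, q = 0.9997, the authors' deposited table). Cntn2 and Nfasc are neighbours on the same strand, 20.6 kb apart. Within 500 kb of Nfasc, the 17 other tested rows, Cntn2 among them, had a median log2 fold change of -0.05, and 10 of them were below T2fx/+, from the authors' deposited table.

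Cdh20, a type II cadherin gene, was close to T2fx/+. Type II cadherins join cells through calcium-dependent binding. Cdh20 (104768819 to 104995481, plus strand) had 18.1 FPKM in T2Isl1/+ retinas and 18.8 FPKM in T2fx/+ retinas, a log2 fold change of -0.06 (unadjusted p = 0.625, q = 0.9997, the authors' deposited table). After Cntn2 and Sema4c it had the highest level of the 10 in both groups.

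Tnr encodes tenascin-R, a matrix glycoprotein of the nervous system that binds contactins. Its level was the lowest of the 10. Tnr (159523769 to 159931722, plus strand) had 0.951 FPKM in T2Isl1/+ retinas and 1.07 FPKM in T2fx/+ retinas, a log2 fold change of -0.17 (unadjusted p = 0.364, q = 0.9997, the authors' deposited table). The fold change was near that of Astn1, and its p-value was larger.

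Astn1 and Nav1 act in migrating and growing neurons. Astrotactin 1 is a membrane protein that neurons of the mouse cerebellum use to move along glial fibres. Astn1 (158362304 to 158691786, plus strand) had 10.9 FPKM in T2Isl1/+ retinas and 12.4 FPKM in T2fx/+ retinas, a log2 fold change of -0.18 (unadjusted p = 0.11, q = 0.9997, the authors' deposited table). Neuron navigator 1 associates with the growing ends of microtubules. Nav1 (135434580 to 135688259, minus strand) had 5.29 FPKM in T2Isl1/+ retinas and 6.12 FPKM in T2fx/+ retinas, a log2 fold change of -0.21 (unadjusted p = 0.0652, q = 0.9997, the authors' deposited table). Both T2Isl1/+ values were thus 86% to 88% of the T2fx/+ values.

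The 10 genes kept the same order by level in both genotypes, from Cntn2 through Sema4c, Cdh20, Nfasc, Astn1, Nav1, Plxna2, Epha4 and Nrp2 to Tnr. The Cntn2 level was 40.0 times that of Tnr in T2Isl1/+ and 40.7 times in T2fx/+ retinas, on the FPKM scale. Summed over the 10 genes the level was 115.8 FPKM in T2Isl1/+ and 127.8 FPKM in T2fx/+ retinas, and Cntn2 made up 32.8% of that sum in T2Isl1/+ and 34.1% in T2fx/+. With 1 value per group, neighbours in this order such as Astn1 and Nfasc cannot be tested against their spread. In each group 5 of the 10 genes were above the median level of tested rows, which was 10.4 FPKM in T2Isl1/+ and 10.7 FPKM in T2fx/+.

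Log2 fold changes of Plxna2, Epha4, Nav1, Cntn2, Nfasc, Astn1 and Tnr ran from -0.35 to -0.17, and those of Nrp2, Cdh20 and Sema4c from -0.08 to 0.0014, in the authors' deposited table. By p-value among the 646 tested rows, Plxna2 ranked 14, Nav1 30, Nfasc 35, Cntn2 36, Astn1 42 and Epha4 43, while Tnr ranked 180, Cdh20 350, Nrp2 369 and Sema4c 635. Adjusted over the tested rows analysed here (Benjamini-Hochberg), the smallest adjusted p of the 10 was 0.215 for Plxna2, and the next was 0.998.

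**Figure D2:**
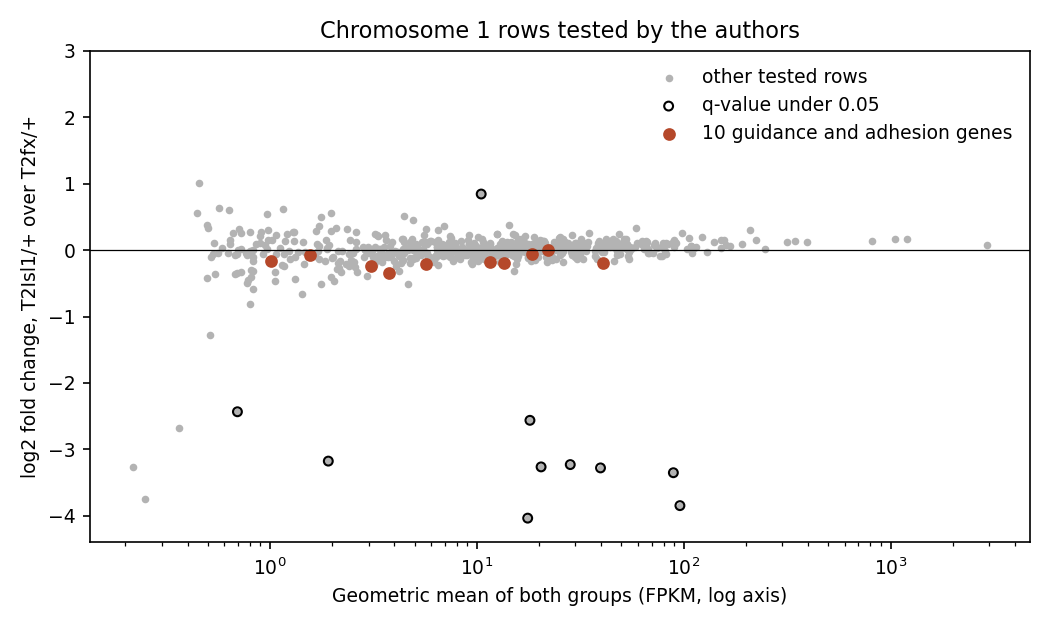
Log2 fold change of T2Isl1/+ over T2fx/+ (y axis) against the geometric mean of both group values in FPKM (x axis, log scale) for the 646 tested rows. Red points are the 10 guidance and adhesion genes, grey points the other rows, and black rings the 10 rows with a q-value under 0.05. The red points lie between -0.35 and 0.0014, inside the cloud of rows that were not called.

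Long transcripts are what most of the 10 genes share. The longest annotated transcript had a median length of 7291 bases over the 10 genes and 3914 bases over the tested rows, and the locus a median of 187 kb over the 10 genes and 41.8 kb over the tested rows. Median GC content of that transcript was 50.5% over the 10 genes and 47.6% over the tested rows. With 611 tested rows split into 5 groups by transcript length, 7 of the 10 genes were in the longest group, Epha4 in the group below it, and Cdh20 and Sema4c in the middle group. In the longest group the median log2 fold change of all 123 rows was -0.08 and 78.0% were below T2fx/+, so a value below T2fx/+ was common among rows of that length.

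Set against the median of its own length group, each of the 10 genes was on the lower side, Sema4c included. By definition a median divides the rows of a group evenly. The median difference of the 10 genes was -0.11 on the log2 scale. These groups match transcript length only, not locus length or GC content. Within the 123 longest rows, ordered from the lowest fold change, Plxna2 ranked 5, Nav1 12, Cntn2 16, Nfasc 18, Astn1 21, Tnr 27 and Nrp2 61. Epha4 ranked 7 of 122 rows in its group. In the middle group of 122 rows Cdh20 ranked 26 and Sema4c 49. Nrp2 was thus at the middle of the rows of its length. Less their median, its log2 fold change was -0.0024, and that of Plxna2 was -0.27. Across the 10 genes the rank correlation of log2 fold change with transcript length was -0.56 (Spearman), and -0.40 over the 9 genes without Sema4c, beside -0.36 over all 611 tested rows with a known length. All of these points come from the same libraries, and the part of transcript length in the values of the 10 genes was not tested.

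**Figure D3:**
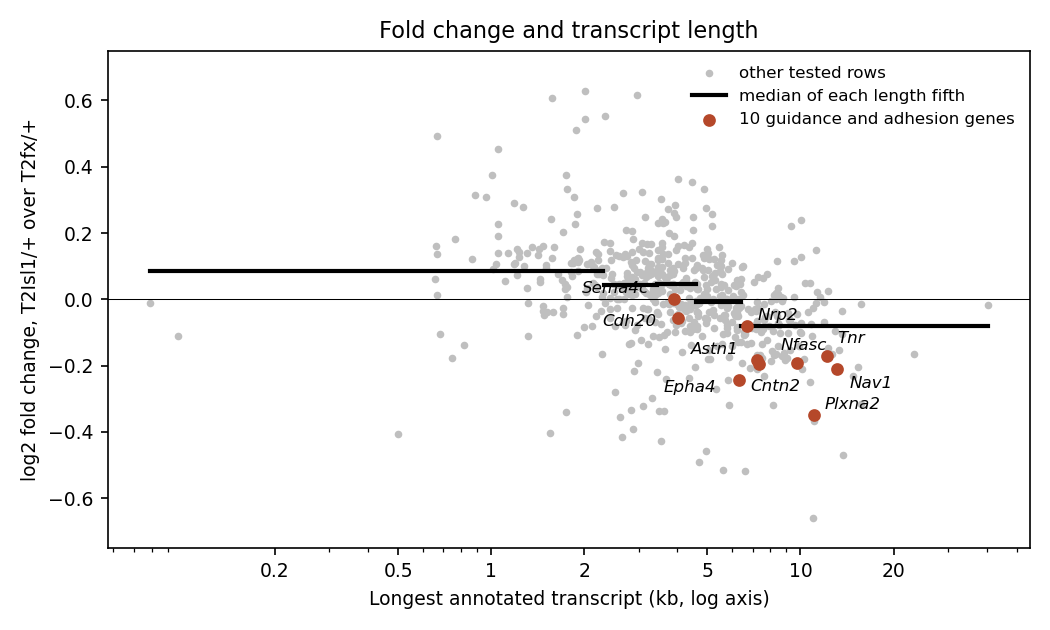
Log2 fold change of T2Isl1/+ over T2fx/+ (y axis) against the longest annotated transcript in kb (x axis, log scale). Red points are the 10 guidance and adhesion genes, grey points other tested rows with a known length, and black lines the median of each of 5 length groups over its length range. The 7 genes of the longest group lie under its median of -0.08. Rows beyond 0.75 in either direction, 15 in all, are outside the plot.

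Other genes of guidance and adhesion on this chromosome had values on both sides of T2fx/+. Of 210 genes on 3 lists, 22 had a tested row, and 0 of the 22 were called, at a q-value under 0.05 or at an unadjusted p under 0.05. Of these 22, 9 were below T2fx/+ and 13 above, with a median log2 fold change of 0.05. Most of the 10 genes, but not of these, are in the longest length group. There Abl2, Srgap2, Nyap2, Klf7, Lamc1 and Dpp10 had log2 fold changes from -0.23 to -0.05, and Lypd1 had 0.10. Less the median of each length group, the median was -0.0007 for growth cone genes and 0.04 for adhesion and matrix genes. It was 0.14 for other guidance genes. The difference between these lists and the 10 genes was not tested.

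Among other guidance ligands and receptors only the chemokine receptor genes Ackr3 and Cxcr4 had a tested row, and both were above T2fx/+. Cxcr4, the signalling receptor for the chemokine Cxcl12, had 39.7 FPKM in T2Isl1/+ retinas and 37.5 FPKM in T2fx/+ retinas (log2 fold change 0.08, q = 0.9997, the authors' deposited table). Ackr3, which takes up the same chemokine, had 6.36 FPKM in T2Isl1/+ retinas and 5.09 FPKM in T2fx/+ retinas (log2 fold change 0.32, unadjusted p = 0.0959, q = 0.9997, the authors' deposited table).

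Other neuronal adhesion and matrix genes had 7 tested members, 3 below and 4 above T2fx/+, with a median log2 fold change of 0.06. Lamc1, the laminin gamma 1 chain of basement membranes, had 6.02 FPKM in T2Isl1/+ retinas and 7.06 FPKM in T2fx/+ retinas (log2 fold change -0.23, unadjusted p = 0.0533, the authors' deposited table). Cdh7, another type II cadherin gene, had 1.42 FPKM in T2Isl1/+ retinas and 1.17 FPKM in T2fx/+ retinas (log2 fold change 0.28, the authors' deposited table), whereas Cdh20 had -0.06 on that scale. Dner, a neuronal transmembrane protein with EGF repeats, had 19.1 FPKM in T2Isl1/+ retinas and 20.6 FPKM in T2fx/+ retinas. Lrrn2, a leucine-rich repeat protein gene, had 13.3 FPKM in T2Isl1/+ retinas and 12.6 FPKM in T2fx/+ retinas. None of these passed the test.

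Growth cone signalling and actin genes had 13 tested members, 6 below and 7 above T2fx/+, with a median log2 fold change of 0.01. The Arp2/3 subunit genes Arpc2 and Arpc5, which serve the branching of actin filaments, were the most abundant. Arpc2 had 111.2 FPKM in T2Isl1/+ retinas and 106.5 FPKM in T2fx/+ retinas, and Arpc5 had 92.6 FPKM in T2Isl1/+ and 84.9 FPKM in T2fx/+ retinas. The smallest p-values on this list belonged to genes with lower values in T2Isl1/+. Abl2, a cytoplasmic tyrosine kinase that regulates actin, had 8.80 FPKM in T2Isl1/+ retinas and 10.2 FPKM in T2fx/+ retinas (unadjusted p = 0.062, the authors' deposited table). Srgap2, which acts in the Slit-Robo pathway, had 8.75 FPKM in T2Isl1/+ retinas and 9.95 FPKM in T2fx/+ retinas (unadjusted p = 0.0991, the authors' deposited table). Nyap2, an adaptor of phosphoinositide 3-kinase in neurons, had 5.39 FPKM in T2Isl1/+ retinas and 6.09 FPKM in T2fx/+ retinas (unadjusted p = 0.178, the authors' deposited table).

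**Figure D4:**
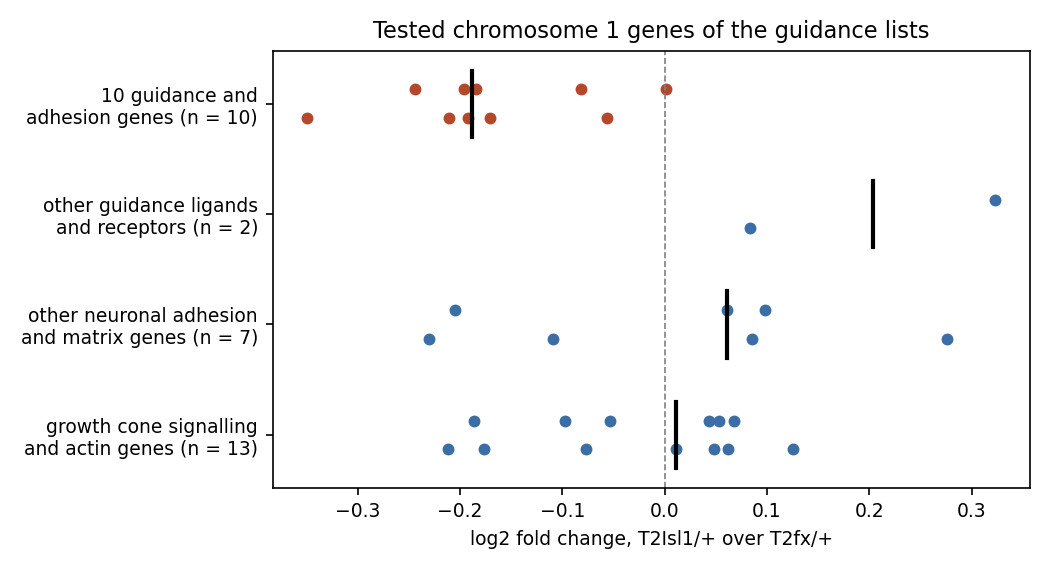
Log2 fold change of T2Isl1/+ over T2fx/+ (x axis) of each tested gene in the group of 10 (top row, red) and in 3 lists of related chromosome 1 genes (blue, with the number tested beside each name). Black bars are medians, at -0.19 for the 10 genes and between 0.01 and 0.20 for the lists. Points are set off vertically only to separate them.

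The few tested rows near Plxna2, Tnr and Cdh20 were above T2fx/+. Within 500 kb, Plxna2 had 1 other tested row, with a log2 fold change of 0.04, Tnr had 2, with a median of 0.10, and Cdh20 had 1, at 0.02, from the authors' deposited table. Nav1 had 13 tested neighbours with a median of 0.01, and Cntn2 had 14 with a median of -0.04. For Nrp2 there were 6 with a median of 0.05, and for Sema4c 11 with a median of -0.02. Epha4 and Astn1 had 0 tested neighbours at that distance.

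Annotated genes overlap the rows of 9 of the 10 genes, all but Cntn2, and none of them is protein-coding. For 7 of the 10 an overlapping gene lies on the opposite strand. Whole gene spans were compared with the rows, and overlap of exons was not examined. The labels do not say that counting used strand, so reads from any stretch of exon shared by such a pair cannot be told apart. The share of all tested rows with an overlap was not counted. Loci of the 10 genes are longer, with a median of 187 kb against 41.8 kb over the tested rows. The Nav1 row extends past the annotated end of Nav1 at 135607295 and covers the noncoding gene Gm38399 (135606447 to 135688105) on the same strand, so its value may include reads of both. Annotated protein-coding transcripts numbered from 1 for Plxna2 and Cdh20 to 7 for Astn1, and the table joins all forms of a gene in 1 value.

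Of 25 retinal marker genes 12 had a row, and these summed to 916 FPKM in T2Isl1/+ and 881 FPKM in T2fx/+ retinas, mostly from Hes6 and Glul. The other 10 summed to 253.8 FPKM in T2Isl1/+ and 256.1 FPKM in T2fx/+ retinas. None of the 12 was called, 7 were below T2fx/+ and 5 above, and log2 fold changes ran from -0.46 to 0.12 in the authors' deposited table. At an unadjusted p under 0.05 there was 1, Tfap2b, a transcription factor gene of amacrine and horizontal cells named here after its values were seen (log2 fold change -0.32, p = 0.008, q = 0.807, the authors' deposited table). Markers of other tissues had lower values in T2Isl1/+: all 7 tested lens, 5 connective tissue and 4 muscle genes were below T2fx/+. The 8 lens genes with a row summed to 93.6 FPKM in T2Isl1/+ and 1038 FPKM in T2fx/+ retinas, with 7 of 7 tested members called lower and Lgsn at 0 in both groups. The 6 connective tissue genes summed to 16.1 FPKM in T2Isl1/+ and 25.1 FPKM in T2fx/+ retinas, with 1 of 5 called lower. The 10 muscle genes summed to 14.9 FPKM in T2Isl1/+ and 18.4 FPKM in T2fx/+ retinas, and the 9 without Mstn, the most abundant, to 1.58 FPKM in T2Isl1/+ and 4.39 FPKM in T2fx/+. Of the 4 tested muscle genes 1 was called lower, and Chrnd was at 0 in both groups. The part of these lens, connective tissue and muscle genes in the values of the 10 guidance and adhesion genes was not tested.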

How the data were processed

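RNA-seq of whole retina was compared between 3 T2Isl1/+ and 3 T2fx/+ libraries, grouped by their labels. Reads were processed with CASAVA, TopHat2 2.1.1 and Cufflinks 2.1.1 on build mm10, tools listed without an order in the submitters' processing notes. The authors deposited a gene table in the layout of Cuffdiff, with 1 FPKM value per gene and group. That unit is inferred from the tool, as the header names no unit. The log2 fold change is T2Isl1 over T2fx without a pseudocount, and p-values and q-values are the authors', per the file headers. The authors' test score, also deposited, was not used. No source used here names the gene annotation.

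The rows analysed cover chromosome 1 in part, and 1 incomplete row was left out. Single genes were not tested anew, because no value per library was used. A gene was called at a q-value under 0.05. With 1 value per group, precision and depth cannot be given. The labels do not say whether pools shared litters, so the p-values may in part measure technical spread.

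Starts were raised by 1, after which 480 rows began at a GENCODE M21 transcript start, against 44 before. Transcript length was matched for 611 of 646 tested rows (94.6%) by symbol. Promoters of all 10 genes came from RefSeq. Computations used Python 3.11.15 and pandas 2.3.3, and the adjustment and length groups were tested on simulated data. The genes and lists were chosen with earlier results of these data known. All 10 genes are named, and from each of the 3 lists of related genes the 3 genes with the smallest p-value and the 2 with the highest level. Genes of these lists in the longest length group are named too. Alternatives covered thresholds, pseudocounts of 1 and 0.1, a floor of 1 FPKM and centring.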

Additional observations from a re-analysis of the deposited data

How the results depend on the processing

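Counts of called genes depended on the adjustment. At an unadjusted p-value under 0.05, 1 of the 10 genes (Plxna2) was lower and 0 were higher, against 0 and 0 at a q-value under 0.05 in the authors' deposited table. Over all tested rows the same change gave 17 lower and 7 higher in place of 9 lower and 1 higher. At a q-value under 0.1, 0 of the 10 genes were called, where all tested rows gave 10 lower and 1 higher. Adjustment over the analysed rows, at a threshold of 0.05, called 0 of the 10 genes, and 10 lower and 1 higher over all tested rows. A threshold of 0.01 cannot separate genes here, because the smallest deposited q-value of any row is 0.0116. The median log2 fold change of the 10 genes was -0.19 as deposited, -0.17 with a pseudocount of 1, -0.20 less the median of all tested rows and -0.11 less the median of each length group. Sema4c changed sign with centring, to -0.012 on all tested rows and -0.045 on its length group, since its deposited value is near 0. The other 9 genes kept their sign with a pseudocount of 1 and with both kinds of centring, although Nrp2 was at -0.0024 less the median of its length group. Leaving out a library was not possible with 1 value per group. No paired analysis was possible because each group has a single combined value and no column carries a replicate number.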
